A study of Mus musculus with 18 samples.

Results

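Megakaryocyte-lineage cells were picked out of 18 libraries of dissociated mouse embryos as cells with at least 1 UMI (unique molecular identifier, 1 captured transcript) for 3 or more of the 6 genes Gp9, Gp1bb, Pf4, Ppbp, Itga2b and Gp5, and with no UMI of Csf1r, the macrophage colony-stimulating factor receptor. Of 105556 cells with 3000 or more mouse UMIs, 222 passed. The 6 genes chose the cells, so their levels in these cells, and the contrast of these cells with all others, are given as description. That contrast was not tested. The 6 genes were among those offered to the fits, but no p-value of theirs is given.

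Each library was labelled as 1 embryo, collected at embryonic day 8.5 (E8.5) on the 129S4/SvJae background and was made with 10x Genomics 3' single-cell chemistry. There were 7 wild-type (WT), 3 Dnmt1_KO, 4 Dnmt3a_KO and 4 Dnmt3b_KO libraries. The KO embryos were null for Dnmt1, the maintenance DNA methyltransferase, or for Dnmt3a or Dnmt3b, the de novo DNA methyltransferases. The comparisons ask how loss of each enzyme altered these cells.

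Null and WT embryos came from crosses between mice carrying 1 mutated copy of the gene, and the mutation was carried by every cell of the embryo, so effects within the lineage and effects of the surrounding embryo cannot be told apart. Whole embryos were dissociated without a sort, and the labels give neither the litter nor the blood islands or vessels a cell came from. No treatment was given to any group.

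The Dnmt3b_KO replicates 1 and 2 shared 12249 barcodes, 86.5% and 79.3% of all their deposited barcodes, and were summed and counted as 1 library. They held 9 and 8 of the chosen cells, of which 2 barcodes were in both, so the 222 cells had 220 distinct barcodes. By Y-linked genes, WT replicate 2 was the male embryo among the WT, while the Dnmt1_KO and Dnmt3a_KO embryos and Dnmt3b_KO replicates 1 + 2 and 11 were male and Dnmt3b_KO replicate 12 was female. Sex and genotype can therefore not be told apart for Dnmt1_KO and Dnmt3a_KO beyond WT replicate 2. WT replicate 1, Dnmt3a_KO replicates 1 and 13 and Dnmt3b_KO replicate 11 had been counted against a combined human and mouse reference. Library totals ran from 39528957 to 263845667 mouse UMIs.

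Megakaryocytes are the large blood cells that shed platelets, the cell fragments that seal damaged vessels. In the mouse embryo they first arise in the yolk sac beside primitive red cells and macrophages, from progenitors that share the transcription factors GATA1, TAL1 and RUNX1 with the red cell lineage. Their surface carries the platelet adhesion receptors, namely the von Willebrand factor receptor made of GP1BA, GP1BB, GP9 and GP5 and the fibrinogen receptor made of ITGA2B and ITGB3, and their alpha granules store chemokines such as PF4 and PPBP.

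The promoters of 3 of the rule's genes are shown because GATA and ETS factors are the classical regulators of platelet genes. They are RefSeq sequences of build GRCm38.p6, from 250 bases before to 50 bases after the start, read 5′ to 3′ on the gene's strand. Capitals mark AGATAA or its reverse complement TTATCT, the letters of a GATA site, and GGAA or TTCC, the core letters of an ETS site, on either strand. Pf4 lies at chr5:90772185-90772484 on the plus strand, Gp5 at chr16:30310732-30311031 on the minus strand and Itga2b at chr11:102469834-102470133 on the minus strand.
Pf4: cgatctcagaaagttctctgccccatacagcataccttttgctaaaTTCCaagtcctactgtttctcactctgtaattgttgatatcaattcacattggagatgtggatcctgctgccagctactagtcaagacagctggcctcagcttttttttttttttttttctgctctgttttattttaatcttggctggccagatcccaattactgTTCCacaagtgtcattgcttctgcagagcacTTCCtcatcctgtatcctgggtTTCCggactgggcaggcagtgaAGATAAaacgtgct
Gp5: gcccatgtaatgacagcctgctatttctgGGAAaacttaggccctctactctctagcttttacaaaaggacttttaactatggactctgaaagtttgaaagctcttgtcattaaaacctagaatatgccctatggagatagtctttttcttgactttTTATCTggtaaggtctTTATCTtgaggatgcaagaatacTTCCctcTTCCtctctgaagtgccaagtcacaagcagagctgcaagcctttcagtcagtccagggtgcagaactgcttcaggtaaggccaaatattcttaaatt
Itga2b: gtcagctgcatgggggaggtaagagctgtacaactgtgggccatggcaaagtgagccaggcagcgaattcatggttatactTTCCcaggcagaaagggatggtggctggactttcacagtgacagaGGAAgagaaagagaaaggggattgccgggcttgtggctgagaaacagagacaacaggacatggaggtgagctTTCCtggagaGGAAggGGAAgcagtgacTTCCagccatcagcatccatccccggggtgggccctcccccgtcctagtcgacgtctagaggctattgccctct
The Gp5 window held 2 AGATAA matches, the Pf4 window 1 and the Itga2b window 0. Across 32851 promoters of this length 11.2% held at least 1 match. GGAA is a short run of letters found in 96.0% of all promoters, and the counts here were 4 in Pf4, 3 in Gp5 and 6 in Itga2b. Of the 6 rule genes 2 had an AGATAA match, and of 18 promoters matched for the platelet surface receptors listed below 5 did, or 27.8%. The other lists of platelet and blood genes were below the share of all promoters. Matches were in 0 of 14 for granule and secreted proteins and 1 of 17 for signalling and enzymes. The cytoskeleton had 0 of 13 and the transcription factors 2 of 23. The windows were also poor in CG dinucleotides, the letters on which DNA methylation sits. The median over the 6 rule genes was 3 CG per window against 7 over all promoters, with 1 of the 6 at or above that median.

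The chosen cells were deep enough to read many genes. They held 7809 to 148356 UMIs each, with a median of 44232.5 and a median of 5624 detected genes, and 10896437 UMIs in all. A median of 2.70% of their UMIs was mitochondrial, 1 cell was above 10%, and 0 failed the study's own cell filters. The ratio of their median UMI count to that of the other cells of the same library was 1.75 in WT (geometric mean of 7 embryos), 2.44 in Dnmt1_KO, 2.35 in Dnmt3a_KO and 1.70 in Dnmt3b_KO. The Dnmt1_KO value rests on replicate 3, with a single chosen cell at 7.91, against 1.05 and 1.75 in the other embryos. In Dnmt3a_KO replicate 2 stood at 8.34 and the others at 1.38 to 1.67, and in WT replicate 2 stood at 7.16 and replicate 7, at 0.976, had no excess. None of the KO ratios differed from the WT ratio beyond the spread between embryos (exact two-sided permutation test, p = 0.667, 0.564 and 0.933, each adjusted p = 0.933). A rule on detected genes passes deep cells more readily, and the geometric mean ratio was above 1 in each group.

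Of the 222 cells, 144 (64.9%) had exactly 3 of the 6 markers, 61 (27.5%) had 4, 16 had 5 and 1 had all 6. The commonest sets were Pf4, Itga2b and Gp5 in 59 cells, Gp9, Pf4 and Itga2b in 58, and all 4 of these genes in 51. Just outside the rule, 1132 cells had 2 markers, and 9 cells had 3 or more markers together with Csf1r.

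Itga2b, which encodes the alpha IIb integrin chain, was detected in 99.1% of the cells, Pf4, a heparin-binding chemokine, in 91.9%, and Gp9 and Gp5, both von Willebrand receptor chains, each in 66.2%. The same shares in endothelial-gated cells, which had at least 3 of Cdh5, Kdr, Tie1, Emcn, Plvap and Tek, were 38.5%, 19.3%, 0.201% and 0.201%. In erythroid-gated cells, which had at least 3 of 6 erythroid genes, among them Klf1, Alas2, Slc4a1, Hemgn and Cited4, they were 42.0%, 1.23%, 5.38% and 0.682%. Median UMIs per library ran from 29720 to 106000 in the chosen cells, 12200 to 62770 in the endothelial gate and 14890 to 70910 in the erythroid gate. The gated populations leave out the chosen cells, of which 71 passed the endothelial gate alone and 66 the erythroid gate alone. The gate shares of the rule's genes are thus lowered by the rule itself. In the cells that remain, Itga2b was widespread in both neighbouring types, and Pf4 in the endothelial gate. Gp9 and Gp5 were rare in endothelial-gated cells. Gp1bb was seen in 16.7% of the chosen cells and Ppbp, a chemokine precursor of late megakaryocytes, in 3.15%.

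The first question is whether the lineage was more or less frequent in the mutants. Among WT embryos it made up 0.368%, 0.187%, 0.171%, 0.0789%, 0.227%, 0.172% and 0.231% of cells in replicates 1 to 7. The highest and lowest had exact binomial 95% intervals (Clopper-Pearson, counting error only) of 0.250% to 0.522% and 0.0163% to 0.230%. The WT embryos thus differed several-fold among themselves.

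In Dnmt1_KO the shares were 0.264%, 0.0962% and 0.0409%, resting on 4, 3 and 1 cells. The Dnmt3a_KO replicates 1, 2, 13 and 14 stood at 0.161%, 0.0617%, 0.578% and 0.232%. In Dnmt3b_KO, replicates 1 + 2, 11 and 12 stood at 0.0973%, 0.132% and 0.553%. Dnmt3a_KO replicate 13 and Dnmt3b_KO replicate 12 were above every WT embryo at the deposited depth, and in each KO group at least 1 embryo lay within the WT range. The exact 95% interval was 0.418% to 0.777% in Dnmt3a_KO replicate 13 and 0.381% to 0.775% in Dnmt3b_KO replicate 12. Both overlapped that of WT replicate 1, 0.250% to 0.522%. With cells thinned to 20000 UMIs replicate 12 fell within the WT range, at 0.369% against 0.402% in WT replicate 1, and Dnmt3a_KO replicate 13 stood above it at 0.574%.

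Mean shares were 0.205% ± 0.0879 (SD, n = 7) in WT, 0.134% ± 0.116 (n = 3) in Dnmt1_KO, 0.258% ± 0.224 (n = 4) in Dnmt3a_KO and 0.261% ± 0.253 (n = 3) in Dnmt3b_KO. No difference from WT exceeded the spread between embryos. On the log2 scale the differences were -0.68 for Dnmt1_KO (exact permutation test of the embryos, two-sided, p = 0.258, adjusted p = 0.775), -0.03 for Dnmt3a_KO (p = 0.945, adjusted p = 0.967) and -0.04 for Dnmt3b_KO (p = 0.967, adjusted p = 0.967). The signs turned with depth and gate. With every cell thinned to 3000 UMIs the differences were 0.33, -0.76 and -1.05 for Dnmt1_KO, Dnmt3a_KO and Dnmt3b_KO, and with cells thinned to 20000 UMIs, a depth chosen after seeing the data, they were -1.52, 1.16 and 1.02. For Dnmt1_KO the difference was 0.59 with 2 markers required (exact permutation p = 0.0417, adjusted p = 0.125) and -1.55 with 4 markers required. No chosen Dnmt1_KO cell was left at either thinned depth or with 4 markers. The Dnmt1_KO side of those 3 differences was therefore set by the 0.5 cells added and by library size. At 3000 UMIs the mean log2 share was -5.83 in WT, -6.59 in Dnmt3a_KO and -6.88 in Dnmt3b_KO, against -2.30, -2.33 and -2.34 unthinned. Few chosen cells were thus left in these groups too. The Dnmt3a_KO and Dnmt3b_KO differences at that depth also rest largely on the 0.5 cells added and on library size.

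Platelet genes that the rule did not use marked the same cells. Levels are given as CPM, the UMIs of a gene per 1000000 UMIs of the summed cells, and as the mean over the 5 WT embryos with at least 5 such cells. Itgb3, the beta chain that pairs with ITGA2B, stood at 48.9 ± 26.4 CPM (SD, n = 5) against 1.32 in all other WT cells, 6.39 in erythroid-gated and 2.04 in endothelial-gated cells. Treml1, an alpha granule membrane receptor, stood at 28.6 ± 24.2 (SD, n = 5) against 0.0551 CPM in other cells. Treml1 was thus near 0 in the cells around them.

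Some receptors were also found in the endothelial gate. Clec1b, the podoplanin receptor CLEC-2, stood at 32.6 ± 44.0 CPM (SD, n = 5) in the chosen WT cells and at 63.9 in endothelial-gated cells. Pecam1, an endothelial and platelet adhesion molecule, stood at 31.5 ± 17.3 CPM and at 89.0 in endothelial-gated cells. P2rx1, an ATP-gated channel, stood at 33.2 ± 17.3 against 0.627 CPM in other cells. F2rl2, a thrombin receptor, stood at 23.6 ± 18.7 against 0.0729 CPM.

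Receptors of mature platelets were at the bottom of the range. Selp (P-selectin), Cd36 and P2ry12 (the ADP receptor) had 0 UMIs in the WT cells, which allows up to 0.764 CPM over the WT embryos together. Gp6, the collagen receptor, stood at 0.383 ± 0.857 CPM (SD, n = 5), and Gp1ba, the ligand-binding chain of the von Willebrand receptor, at 5.95 ± 4.03. Of the 24 listed surface receptors, 14 had a WT median above the other cells of the same embryo, 4 of them in 7 of 7 embryos, and the list's median difference was 0.35 on a log2 scale with 10 CPM added, beside -0.04 over 9764 genes. The list includes Lyve1, Esam, Pecam1 and Mcam, and Lyve1 and Pecam1 are described here as genes of endothelium too.

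Rab27b, a GTPase of platelet granule secretion, stood at 223 ± 125 CPM (SD, n = 5) against 1.65 in other cells. Plek (pleckstrin, a protein kinase C substrate of platelets) stood at 134 ± 70.2 against 0.488 CPM, and Tgfb1, a growth factor stored in platelets, at 224 ± 72.8 against 12.95 CPM. Alpha granule cargo varied from gene to gene. Vwf (von Willebrand factor) stood at 2.26 ± 2.50 CPM, Mmrn1 (multimerin) at 11.7 ± 5.60 and F13a1 (coagulation factor XIII A chain) at 7.37 ± 5.06, while Thbs1 (thrombospondin 1) stood at 32.7 ± 40.5 CPM and Clu (clusterin) at 37.2 ± 12.4. Of 19 listed granule and secreted proteins 14 had a higher WT median, 6 in 7 of 7 embryos.

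Signalling proteins that activate integrins were high in the cells. Fermt3 (kindlin-3, which binds integrin tails) stood at 249 ± 64.9 CPM (SD, n = 5) against 9.20 in other cells. Rap1b, the main RAP GTPase of platelets, stood at 962 ± 455 against 150 CPM, and its exchange factor Rasgrp2 at 287 ± 57.4 against 45.5 CPM. Lat, the adaptor of collagen receptor signalling, stood at 39.7 ± 13.8 against 0.759 CPM, and Rgs18, a regulator of G protein signalling in platelets, at 18.3 ± 19.4 against 0.0475 CPM. Of 20 listed signalling genes 16 had a higher WT median, 10 of them in 7 of 7 embryos, with a list median of 1.52 on the same scale.

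The cytoskeletal genes were mixed. Tubb1, the megakaryocyte-specific beta tubulin of the platelet rim, stood at 4.39 ± 2.57 CPM (SD, n = 5) against 0.0532, and Was (Wiskott-Aldrich syndrome protein) at 72.1 ± 18.1 against 2.01. Myl9, a myosin light chain, was lower in the cells, at 3.11 ± 1.515 CPM (SD, n = 5) against 32.9. Of 13 listed genes 6 had a higher WT median, and the list median was -0.07.

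The listed transcription factors, which include erythroid and general blood factors such as Klf1 and Lmo2, were the most uniform group. Of these, 20 of 20 had a higher WT median, 16 in 7 of 7 embryos, with a list median of 1.71. Runx1 had a pooled WT level of 176 CPM (exact Poisson 95% interval 163 to 190, counting error only) against 11.2 in other cells, 41.4 in erythroid-gated and 10.7 in endothelial-gated cells. Gfi1b, a repressor of the erythroid and megakaryocytic lineages, stood at 80.9 ± 31.1 CPM (SD, n = 5) against 41.1 in erythroid-gated and 1.46 in endothelial-gated cells. Gata1 and Nfe2 were shared with the erythroid gate, Gata1 at 94.7 ± 20.7 against 90.6 there and 0.987 CPM in the endothelial gate. Fli1, an ETS factor of endothelium and platelets, was shared the other way, at 102 ± 41.6 against 153 in the endothelial gate and 2.73 CPM in the erythroid gate. Myb, a progenitor factor, stood at 46.3 ± 9.74 against 1.92 CPM in other cells.

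**Figure D1:**
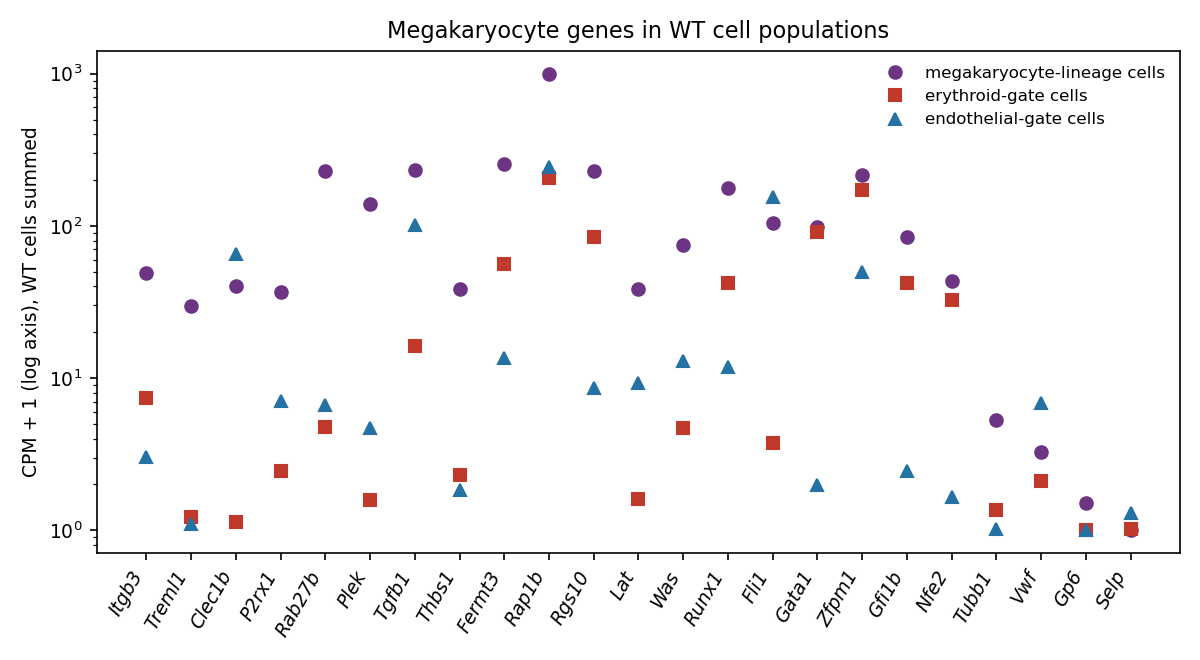
Pooled WT level in CPM with 1 added (log axis) of genes outside the rule in the megakaryocyte-lineage cells, erythroid-gated cells and endothelial-gated cells; each point is 1 population. Itgb3, Treml1 and Rab27b are far higher in the megakaryocyte-lineage cells than in both gates, while Selp is at 0 in them.

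By size alone, the 15 leading genes outside the rule were Rab27b, Fermt3, Plek, Runx1, Tgfb1, Tspan32, Ctla2a, Arhgdib, Rgs10, Sla2, Was, Ptpn7, Cited4, Lmo2 and Nrgn, each higher in the cells of 7 of 7 WT embryos. Their median log2 difference from other cells ran from 3.73 for Rab27b to 2.67 for Nrgn. Some are general blood genes: Arhgdib, a GTPase inhibitor of blood cells, stood at 146 ± 51.8 CPM (SD, n = 5) against 8.26, and Ptpn7, a phosphatase of blood cells, at 61.7 ± 8.19 against 0.640. Lmo2, a partner of TAL1 and GATA1, was at 312 ± 71.7 CPM and also at 162 in erythroid-gated and 213 in endothelial-gated cells.

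Genes of other lineages were present too. Fcer1g, an Fc receptor adaptor of myeloid cells and platelets, stood at 57.7 ± 54.6 CPM (SD, n = 5) against 0.943 in other WT cells, and Spi1 (PU.1, a myeloid factor) at 40.1 ± 15.3 against 0.710. The macrophage markers Cx3cr1 and Adgre1 and the granulocyte marker Elane had 0 UMIs in the WT cells, as did Ptprc, the leukocyte antigen CD45. Of the 12 listed myeloid genes 7 had a higher WT median. Of the 222 cells, 164 had a UMI of at least 2 of Fcer1g, Tyrobp, Laptm5, Coro1a, Fcgr3 and Spi1. That count depends on depth and was not set beside other cells. Of 5 mast cell and basophil genes, 8 yolk sac endoderm genes, 7 trophoblast genes and 6 mesenchyme genes, 0 had a higher WT median. The yolk sac endoderm genes nonetheless summed to 2096 CPM in the cells of WT replicate 7 and 995 CPM in those of Dnmt3a_KO replicate 2, against 21.4 to 766 CPM in all other libraries, and their part in the values of these libraries was not tested.

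The cells overlapped both neighbouring gates. Of the 222, 66 passed the erythroid gate alone, 71 the endothelial gate alone, 29 both and 56 neither, and 16 were marked as doublets by Scrublet. Pf4 stood at 246.5 CPM in the cells of neither gate, 72.7 in those of the erythroid gate, 165 in those of the endothelial gate and 70.6 in those of both. Itgb3 stood at 74.6, 22.7, 49.8 and 42.2 CPM in the same sets. These values are pooled over embryos and describe the sets only. Pf4 belongs to the rule, and median UMIs per cell were 33180 in the cells of neither gate against 47940, 45060 and 56100 in the other sets. The part of depth in these levels was not tested. Genotypes were mixed unevenly too, the cells of Dnmt1_KO being 0 of the 56 and 4 of the 29 that passed both gates.

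A globin and a vessel gene outside the gates' own lists also differed between the sets. Hba-x, an embryonic alpha-type globin, stood at 329 CPM in the cells of neither gate and 10690 in those of the erythroid gate alone. Lyve1, a hyaluronan receptor of yolk sac endothelium, stood at 1.93 CPM in the cells of neither gate and 123 in those of the endothelial gate alone. Neither of these genes is among those that define the gates. Whether cells of the erythroid and endothelial gates were intermediate cells, doublets or cells with free RNA was not tested. The Scrublet marks took 2 of the 56 cells of neither gate, 4 of the 66, 8 of the 71 and 2 of the 29 cells of both gates.

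Several platelet genes were higher with more rule markers in a cell, from 2 markers (cells just outside the rule) through 3 and 4 to 5 or 6. Plek stood at 13.2, 96.7, 187 and 355 CPM, and Treml1 at 2.69, 25.6, 53.3 and 123. Clec1b stood at 26.9, 15.9, 39.2 and 171 CPM and was not higher at each step. Other genes went the other way: Hba-x stood at 22730, 4574, 2754 and 599 CPM, and Cdh5 at 133, 51.1, 15.1 and 1.43. The endothelial receptor gene Kdr stood at 159.6, 47.7, 61.3 and 69.9 CPM, lower in the chosen cells than at 2 markers but higher with each step among them. Gata1, shared by both blood lineages, stayed between 60.3 and 102 CPM. Mki67, a proliferation gene, stood at 172, 168, 141 and 228 CPM, so cell cycle transcripts were present at each marker number.

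Within an embryo, where all cells come from the same library, Rab27b and Plek were also higher with more markers. In WT replicate 1, with 15, 10 and 6 cells of 3, 4 and 5 or 6 markers, Rab27b stood at 306, 365 and 679 CPM and Plek at 189, 195 and 446. In Dnmt3a_KO replicate 13, with 20, 20 and 3 such cells, Rab27b stood at 121.5, 296 and 441 CPM, Treml1 at 28.6, 92.9 and 132, and Hba-x at 9629, 1062 and 203. In WT replicate 1 other genes had no steady order, Treml1 standing at 59.5, 20.6 and 119.5 CPM, Hba-x at 12670, 334 and 364 and Cdh5 at 29.7, 46.3 and 5.43. Median UMIs per cell were 45270, 44650 and 41050 for 3, 4, and 5 or 6 markers.

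**Figure D2:**
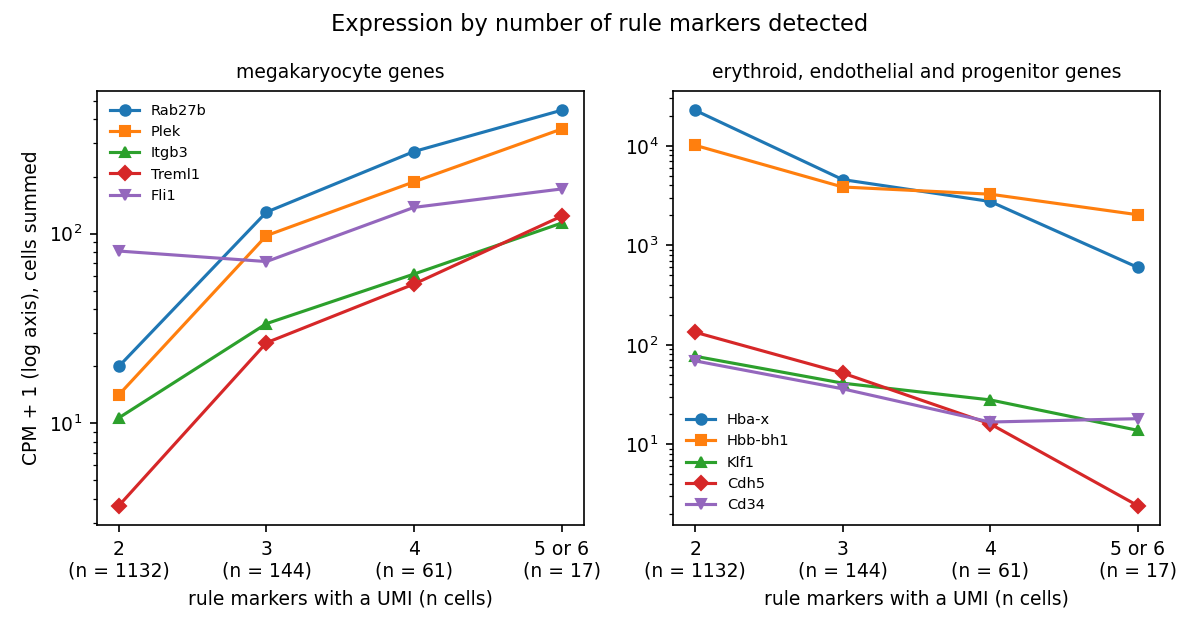
Level in CPM with 1 added (log axis) against the number of rule markers detected per cell (2, outside the rule, then 3, 4, and 5 or 6; 1132, 144, 61 and 17 cells), with platelet genes and Fli1 on the left and erythroid and endothelial genes on the right. Plek climbs from 13.2 to 355 CPM while Hba-x goes from 22730 to 599 CPM.

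The targeted genes were read first in the mutants, in summed counts of these cells. In such sums fewer cells of a kind and less RNA per cell cannot be told apart. Dnmt1 stood at 126, 119, 121, 150, 82.3, 122 and 117 CPM in WT replicates 1 to 7 and at 17.4, 27.7 and 18.9 CPM in the Dnmt1_KO embryos, with no overlap. Dnmt3a stood between 21.4 and 35.3 CPM in WT and at 5.31, 7.45, 5.66 and 6.57 CPM in Dnmt3a_KO, again with no overlap. How many of all genes separate without overlap was not counted. Dnmt3a was also low in Dnmt3b_KO, at 20.4, 15.7 and 3.099 CPM. Dnmt3b itself stood at 69.5 to 107 CPM in WT and 83.5, 168 and 104 CPM in Dnmt3b_KO, so its counts did not mark the Dnmt3b_KO libraries. A null allele need not remove the 3' end that this chemistry counts, and which part of Dnmt3b was deleted is not given in the sources used here. In the other cells of the Dnmt3b_KO embryos Dnmt3b stood at 63.0 CPM against 62.6 in WT, and Dnmt3a at 18.3 against 29.9. Neither gene passed in the Dnmt3b_KO cells (edgeR, adjusted p = 0.301 for Dnmt3a at log2 -1.46 ± 0.44 SE and 0.627 for Dnmt3b at 0.31 ± 0.20).

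Gene levels were compared with edgeR's quasi-likelihood test over 11 libraries. A library entered with at least 10 of the cells, or with at least 5 in a group where fewer than 3 libraries had 10, which was the case for WT. These were WT replicates 1, 2, 3, 6 and 7, Dnmt3a_KO 1, 13 and 14, and Dnmt3b_KO 1 + 2, 11 and 12, so Dnmt3a_KO replicate 2, with 6 cells, did not enter. A gene was called over 6135 genes where the Benjamini-Hochberg adjusted p was below 0.01 and the log2 fold change was 1 or more in either direction.

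Dnmt3a_KO had 0 called genes of 6135 (0%), with 306 at unadjusted p below 0.05 and 2 by DESeq2, namely Rpl39l, higher, and Rnd2, lower. Dnmt3a itself had a log2 fold change of -2.25 ± 0.44 (SE) and missed the threshold (edgeR adjusted p = 0.189). Dnmt3b_KO had 2 called genes (0.0326%), Rpl39l and Rec114, both higher, with 572 at unadjusted p below 0.05 and 3 called by DESeq2.

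Rpl39l, a testis-enriched copy of the ribosomal protein gene Rpl39 (chr16:10170226-10174911, plus strand, mm10), had 0.958, 2.34 and then 0 CPM in the WT replicates 1, 2 and 3 to 7. It stood at 27.8, 28.9 and 112 CPM in the 3 Dnmt3b_KO libraries and at 7.08, 9.93, 25.2 and 25.2 CPM in the 4 Dnmt3a_KO libraries. No KO library overlapped the WT in these values. The share of all tested genes that separate from the WT in this way was not counted, for Rpl39l or for Rec114 and Tex19.1 below. WT replicates 4 and 5 had 3 cells each, with 186939 and 170076 UMIs, so a level of 7.08 or 9.93 CPM could also give 0 UMIs there. The WT sum of the tested libraries was 3 UMIs, and the pooled ratio to WT was 97.3 (exact 95% counting interval 32.8 to 475.5) in Dnmt3b_KO and 26.4 (8.71 to 131) in Dnmt3a_KO. The fitted log2 fold changes, which depend on the prior count, were 6.03 ± 0.70 (SE, edgeR adjusted p = 0.00121) in Dnmt3b_KO and 4.41 ± 0.82 (adjusted p = 0.175) in Dnmt3a_KO. Rpl39l resembles Rpl39, and reads that fit both copies could be split or dropped by the counting, so its level is uncertain.

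Rec114, which encodes a protein needed for meiotic DNA breaks (chr9:58652850-58743964, minus strand, mm10), stood at 8.62, 2.34, 3.23, 0, 0, 5.52 and 3.91 CPM in WT. It stood at 27.8, 26.2 and 47.1 CPM in Dnmt3b_KO, all above the WT (log2 2.84 ± 0.37 SE, edgeR adjusted p = 0.00236). In Dnmt3a_KO it stood at 15.9, 17.4, 14.4 and 20.8 CPM, also all above the WT (log2 1.72 ± 0.40 over the 3 tested libraries, edgeR adjusted p = 0.351). The 0 CPM of WT replicates 4 and 5 again rests on 3 cells each.

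Tex19.1, a germ cell and placental gene that guards against retrotransposons (chr11:121146143-121148319, plus strand, mm10), stood at 0 to 13.7 CPM in WT. It stood at 29.7, 34.1 and 166 CPM in Dnmt3b_KO and 17.7, 47.2, 44.3 and 68.9 CPM in Dnmt3a_KO. The groups did not overlap but the test missed the threshold, with log2 3.98 ± 0.60 (SE, edgeR adjusted p = 0.0111) in Dnmt3b_KO and 3.02 ± 0.64 (adjusted p = 0.294) in Dnmt3a_KO. In Dnmt3b_KO it passed in 11 of 20 alternatives, DESeq2 (adjusted p = 0.00439) and a Y-linked covariate (adjusted p = 2.25e-05) among them, and the adjusted p ran up to 0.396 without replicate 12. Its near copy Tex19.2 makes the level uncertain.

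Dnmt3b_KO replicate 12 had the highest level of all 3 genes among the WT, Dnmt3a_KO and Dnmt3b_KO libraries. Without it no gene was called in Dnmt3b_KO, Rpl39l standing at log2 4.88 (edgeR adjusted p = 0.0505) and Rec114 at 2.44 (adjusted p = 0.270). Rec114 also missed the threshold without WT replicate 2 (adjusted p = 0.0120) or WT replicate 6 (adjusted p = 0.0106), which left 1 call each. With counts thinned to the smallest library both calls were lost, Rpl39l standing at log2 5.37 (edgeR adjusted p = 0.0172) and Rec114 at 2.315 (adjusted p = 0.233). Replicate 12 alone was counted with a later version of the counting software and the part of that version was not tested. It was also the female one of its group. Its Dnmt3a level, 3.099 CPM, lay below every Dnmt3a_KO library (5.31 to 7.45 CPM), while its Dnmt3b level, 104 CPM, lay within the WT range, so the counts of the targeted genes do not check its label. With a Y-linked covariate in the fit Rpl39l and Rec114 stayed called in Dnmt3b_KO (log2 6.437 and 3.096, edgeR adjusted p = 2.25e-05 and 0.000222). The same fit called 2 genes in Dnmt3a_KO, Rpl39l and Tex19.1, both higher, though all Dnmt3a_KO embryos were male.

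The promoters of these 3 genes are shown since DNA methylation sits on CG. They are RefSeq sequences of build GRCm38.p6 over the same window as above, with CG in capitals, Rpl39l at chr16:10169978-10170277 on the plus strand, Rec114 at chr9:58741510-58741809 on the minus strand and Tex19.1 at chr11:121145893-121146192 on the plus strand.
Rpl39l: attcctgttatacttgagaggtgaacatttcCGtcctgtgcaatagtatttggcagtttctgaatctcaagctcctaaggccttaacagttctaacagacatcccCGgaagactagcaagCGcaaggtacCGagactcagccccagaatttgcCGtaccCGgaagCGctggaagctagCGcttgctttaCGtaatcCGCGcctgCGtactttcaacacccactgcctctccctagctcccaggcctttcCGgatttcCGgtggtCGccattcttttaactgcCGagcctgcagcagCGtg
Rec114: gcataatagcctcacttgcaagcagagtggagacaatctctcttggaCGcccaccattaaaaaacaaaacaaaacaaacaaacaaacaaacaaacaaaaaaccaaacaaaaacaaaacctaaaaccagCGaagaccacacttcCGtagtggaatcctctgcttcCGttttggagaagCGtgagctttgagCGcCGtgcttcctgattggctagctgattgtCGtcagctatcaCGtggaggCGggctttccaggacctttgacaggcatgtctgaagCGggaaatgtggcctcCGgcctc
Tex19.1: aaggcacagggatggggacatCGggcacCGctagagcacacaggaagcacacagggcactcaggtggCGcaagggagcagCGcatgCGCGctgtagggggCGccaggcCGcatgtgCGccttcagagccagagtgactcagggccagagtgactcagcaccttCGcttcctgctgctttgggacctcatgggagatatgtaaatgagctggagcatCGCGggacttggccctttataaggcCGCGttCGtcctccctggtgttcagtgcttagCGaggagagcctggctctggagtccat
The windows hold 17, 12 and 16 CG, and 31.4%, 39.6% and 33.0% of all promoters hold as many. The 41 promoters matched for 35 of 40 listed germline genes had a median of 19 CG, and 38 of them were at or above the median of all promoters, 7, whose quartiles are 3 and 20. No methylation was measured in these libraries.

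The germline genes as a list of 40 had little transcript in WT megakaryocyte-lineage cells. Their summed level was 11.8 to 27.4 CPM in the 7 WT embryos, 448 to 793 CPM in Dnmt1_KO, 61.9 to 198 CPM in Dnmt3a_KO and 117, 186 and 899 CPM in Dnmt3b_KO. Every KO embryo was above every WT embryo. The list was chosen with earlier results of these data known, so this order is description only. How many other gene sets of similar level separate in this way was not counted. In Dnmt3b_KO replicate 12, 30 of the 40 genes had a UMI, against 1 to 13 in WT. At least 1 germline UMI was found in 33.3% to 100% of the cells of each WT embryo, 100% in each Dnmt1_KO, 76.9% to 100% in Dnmt3a_KO and 88.2% to 100% in Dnmt3b_KO. Of the list, 2 genes were deep enough for the test, with 1 called in Dnmt3b_KO, beside 0.0326% of all tested genes, and 0 called in Dnmt3a_KO. The called gene, Rpl39l, had 3 UMIs in the tested WT libraries and passed the low-count filter through the KO libraries.

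The other cells of the same embryos also carried these transcripts. Rpl39l stood at 1.96 CPM in the other WT cells and 139, 10.0 and 69.6 in those of Dnmt1_KO, Dnmt3a_KO and Dnmt3b_KO, and Tex19.1 at 3.99, 67.8, 16.7 and 45.4. An interaction term asked whether the KO difference in the megakaryocyte-lineage cells exceeded that in the other cells, over 11268 genes. It did not pass for Rpl39l (edgeR adjusted p = 0.813 in Dnmt3b_KO, log2 1.12, 95% interval -0.51 to 2.74) or Rec114 (adjusted p = 0.957, log2 0.28, 95% interval -0.85 to 1.40).

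The interaction called 1 gene in Dnmt3a_KO (0.00887%, with 544 at unadjusted p below 0.05) and 0 in Dnmt3b_KO (777 at unadjusted p below 0.05). The gene was Tsix, the antisense partner of Xist, with log2 3.21 ± 0.43 (SE, edgeR adjusted p = 0.00961). Its 5 WT libraries had 2.34 to 8.08 CPM in the cells and 1.47 to 17.1 CPM in other cells, and the 3 Dnmt3a_KO libraries 14.2 to 19.04 CPM in the cells and 3.07 to 4.26 in others. These rest on 2 to 37 UMIs per library, Tsix overlaps Xist, and the Dnmt3a_KO embryos were male while 4 of the 5 WT were female. The call was lost with library-size scaling, against either gated population, and without WT replicate 1, 3, 6 or 7, any tested Dnmt3a_KO library, or Dnmt3b_KO replicate 1 or 11. It was kept without WT replicate 2 and without Dnmt3b_KO replicate 2 or 12. In Dnmt3b_KO the Tsix value was 2.21 (adjusted p = 0.416).

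**Figure D3:**
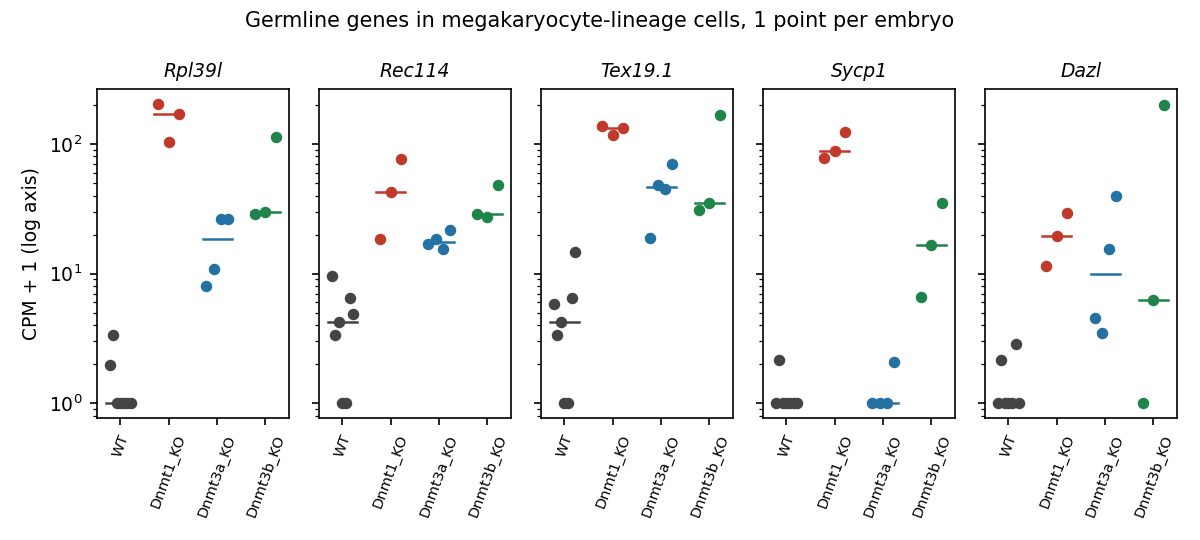
Level in CPM with 1 added (log axis) of Rpl39l, Rec114, Tex19.1, Sycp1 and Dazl in the megakaryocyte-lineage cells; each point is 1 embryo, lines are group medians and groups are along the x axis. Rpl39l is at 0 to 2.34 CPM in WT, 7.08 to 25.2 in Dnmt3a_KO, 27.8 to 112 in Dnmt3b_KO and 102 to 202 in Dnmt1_KO.

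The platelet and transcription factor lists held 0 called genes in Dnmt3a_KO and Dnmt3b_KO, beside 0% and 0.0326% of all tested genes. In Dnmt3a_KO, 13 genes of the surface receptor list, which includes Lyve1 and Pecam1, were deep enough. Their median log2 fold change was 0.16 with 8 above 0, beside a median of 0.00 over all genes tested. The 7 granule genes had a median of 0.22, the 15 signalling genes -0.03, the 10 cytoskeletal genes 0.04 and the 19 transcription factors -0.02. In Dnmt3b_KO the receptors had a median of -0.50 with 3 above 0, the granule genes -0.55 with 1 above 0, the signalling genes -0.27, the cytoskeletal genes -0.31 and the transcription factors 0.04, beside -0.01 over all genes. In Dnmt3b_KO an unadjusted p below 0.05 was found for 4 receptors, 1 granule gene, 2 signalling genes, 3 cytoskeletal genes and 1 transcription factor, beside 572 of all 6135 genes.

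Pf4, Itgb3 and Plek overlapped between WT and these mutants. Pf4, a gene of the rule, stood at 26.8 to 294 CPM in WT, 74.5 to 255 in Dnmt3a_KO and 96.5, 105 and 104 in Dnmt3b_KO. Itgb3 stood at 17.6 to 81.4 CPM in WT, 29.8 to 66.8 in Dnmt3a_KO and 44.5, 44.6 and 24.8 in Dnmt3b_KO. Plek stood at 26.8 to 237 CPM in WT, 124 to 194 in Dnmt3a_KO and 152, 102 and 105 in Dnmt3b_KO. Lgals1, a galectin, stood at 92.8, 65.6 and 29.1 CPM in Dnmt3b_KO, the first within the WT range of 82.3 to 642, and did not pass (log2 -2.01 ± 0.36 SE, edgeR adjusted p = 0.0549). It was called, as lower, with a Y-linked covariate and without Dnmt3a_KO replicate 13. It was named after its values were seen.

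No listed erythroid or endothelial gene was called in these comparisons, beside 0% and 0.0326% of all tested genes in Dnmt3a_KO and Dnmt3b_KO. Hbb-bs, a globin gene outside the list, was called as higher in Dnmt3b_KO with a Y-linked covariate. In Dnmt3a_KO 10 erythroid genes were deep enough and 9 were above 0, with a median of 1.05, and in Dnmt3b_KO 9 of 10, with a median of 0.56. By embryo the erythroid list summed to 1083 to 17694 CPM in WT, 6226 to 21826 in Dnmt3a_KO and 1792, 7168 and 13997 in Dnmt3b_KO, so the groups overlapped widely. The endothelial list had 8 genes tested, with a median of -0.14 in Dnmt3a_KO and -0.65 in Dnmt3b_KO and 0 of 8 above 0 in Dnmt3b_KO.

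**Figure D4:**
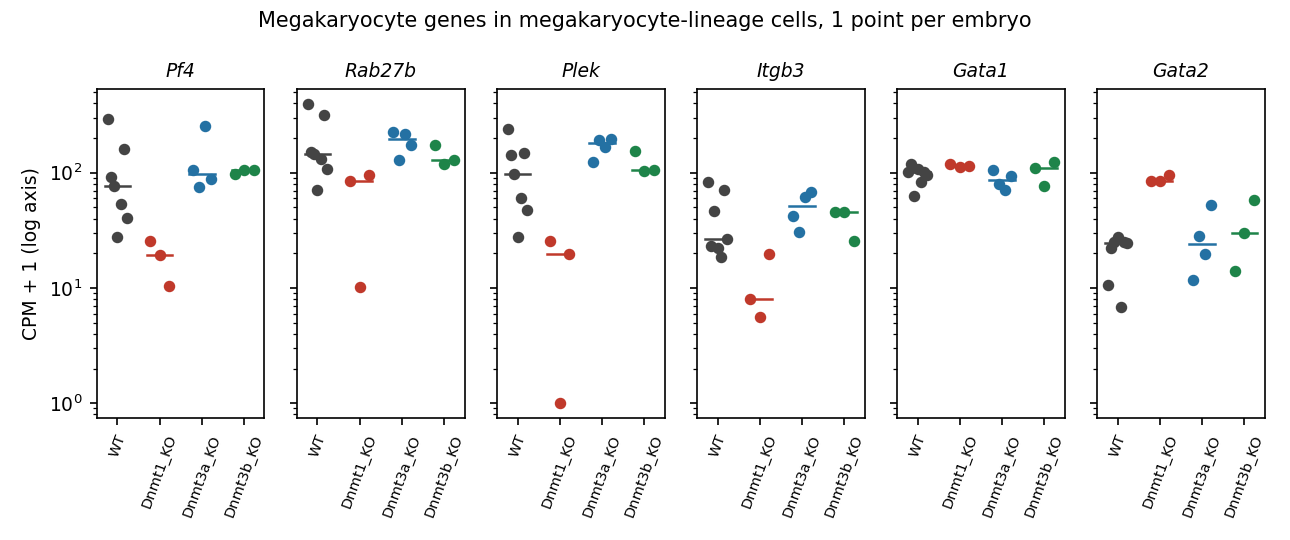
Level in CPM with 1 added (log axis) of Pf4, Rab27b, Plek, Itgb3, Gata1 and Gata2 in the megakaryocyte-lineage cells; each point is 1 embryo, lines are group medians and groups are along the x axis. The 3 Dnmt1_KO embryos lie at the low end for Pf4 (9.44 to 24.4 CPM) and Plek (0 to 24.4) and above WT for Gata2 (83.1 to 94.4 against 5.88 to 26.8).

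Dnmt1_KO held 8 of the cells, 4, 3 and 1 per embryo, of 7079 cells in all, and none of its libraries reached 5, so the comparison was run on libraries with at least 3 such cells, a limit chosen after seeing the data. This took 2 Dnmt1_KO and 7 WT libraries and 6568 genes, on 503185 and 3928690 UMIs. Of these genes 40 were called (0.609%), 27 higher (0.411%) and 13 lower (0.198%), with 1097 at unadjusted p below 0.05 and 45 by DESeq2. With library sizes alone as scaling the split was 17 higher and 23 lower, the median of all genes moving from -0.03 to -0.16. Leaving out the Dnmt1_KO replicate 1 left 4 calls, replicate 2 left 9, and WT replicates 2 and 6 left 20 and 22, so the number of calls rests on single libraries. All 8 Dnmt1_KO cells had exactly 3 markers, against 45 of 74 in WT.

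Of the 27 higher genes 3 were on the germline list. Rpl39l stood at 202, 102 and 170 CPM in the Dnmt1_KO embryos, and its pooled ratio to WT was 208 (exact 95% counting interval 68.7 to 1031). Sycp1, a synaptonemal complex protein of meiosis, stood at 76.8, 87.8 and 123 CPM against a single UMI in WT, a ratio of 320.1 (54.3 to 12950). Tex19.1 stood at 136, 116 and 132 CPM against 0 to 13.7 in WT (log2 4.78 ± 0.65 SE, edgeR adjusted p = 0.000375). No WT embryo overlapped the Dnmt1_KO embryos for these 3 genes. The share of all tested genes without such overlap was not counted. Of 9 listed germline genes tested, 9 were above 0 with a median of 4.78. The same 3 were called, beside 0.411% of all tested genes called higher. Genes with few WT UMIs, such as Asz1 and Tex13b with 0, passed the low-count filter through the KO libraries. The direction of the tested genes was thus largely fixed by the filter. Rec114 missed the threshold (log2 2.76, edgeR adjusted p = 0.0163).

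Other genes rose in Dnmt1_KO. Noct (nocturnin, a circadian phosphatase) stood at 108, 152 and 123 CPM against 9.58 to 23.4 in WT (log2 3.07 ± 0.30 SE, edgeR adjusted p = 3.31e-06), and Mnd1, a meiotic recombination factor, at 171, 83.1 and 132 against 21.4 to 33.2 (2.25 ± 0.24, adjusted p = 1.07e-05). Gm21887, a predicted X-linked gene, stood at 248, 152 and 84.9 CPM against 0 to 11.8 in WT (5.69 ± 0.49, adjusted p = 1.30e-06), and the Dnmt1_KO embryos were male while 6 of the 7 WT were female. Clvs1 (clavesin 1) stood at 83.7, 36.9 and 84.9 CPM against 1 WT UMI, a ratio of 250 (41.7 to 10170). With at most 1 UMI in any WT, Dnmt3a_KO or Dnmt3b_KO library, it passed the low-count filter only through the Dnmt1_KO libraries. Its direction was thus fixed by the filter.

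Imprinted genes are expressed from 1 parental copy under the control of DNA methylation. They moved both ways, with 2 higher and 1 lower of 24 tested, beside 0.411% and 0.198% of all tested genes. Grb10, an adaptor that restrains growth, stood at 54.8 to 144 CPM in WT and 3.49, 0 and 9.44 in Dnmt1_KO, and the pooled WT level was 45.9 times higher (exact 95% counting interval 8.18 to 1816). Impact, a regulator of translation, stood at 119, 97.0 and 66.1 CPM against 19.2 to 48.1 (log2 2.19 ± 0.33 SE, edgeR adjusted p = 0.000763). Kcnq1ot1, a long non-coding RNA that overlaps Kcnq1 in antisense, stood at 422, 360.2 and 481 CPM against 146 to 215 (1.24 ± 0.20, adjusted p = 0.00206). The 3 genes separated Dnmt1_KO from WT with no overlap, again without a count of the share of all genes that did so.

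Lower genes were led by Hnrnpa0, an RNA-binding protein, at 150, 166 and 255 CPM against 318 to 945 in WT (log2 -1.98 ± 0.28 SE, edgeR adjusted p = 0.000434). Dnmt1 itself was called (-2.31 ± 0.33, adjusted p = 0.000442). Mbd2, a reader of methylated DNA, stood at 10.5, 4.62 and 28.3 CPM against 35.3 to 91.3 (-2.95 ± 0.50, adjusted p = 0.00251), and Mapkapk2, a stress kinase, at 13.95, 9.24 and 28.3 CPM against 43.6 to 73.8 (-2.23 ± 0.42, adjusted p = 0.00651). Ndufv3, a respiratory chain subunit, and Actr3, an actin nucleator, were also called (-1.47 and -1.10, each adjusted p = 0.00651). Decr1, a mitochondrial enzyme of fat oxidation, had 0 UMIs in the 2 tested Dnmt1_KO libraries and was at least 3.37-fold higher in WT, against a floor of 3 counts over the group. The Dnmt1_KO replicate 3, which did not enter, stood at 9.44 CPM for Decr1.

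Trap1a, a placental and tumour antigen gene, was called among the 4 tested extraembryonic genes named by the study, beside 0.411% of all tested genes. It stood at 237, 374 and 547 CPM in Dnmt1_KO against 0 to 52.8 in WT (log2 5.15 ± 0.93 SE, edgeR adjusted p = 0.0051). With each of the 9 libraries left out in turn, Rpl39l, Sycp1, Noct and Gm21887 kept their call 9 times. Tex19.1, Mnd1 and Dnmt1 kept it 8 times. Clvs1 was called in the 8 fits that tested it, though its direction was fixed by the filter. Grb10, Impact, Kcnq1ot1, Hnrnpa0 and Mbd2 kept their call 7 times. Decr1 and Ndufv3 kept it 6 times, Trap1a and Mapkapk2 5 times and Actr3 4 times.

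The platelet and transcription factor lists had 0 called genes in Dnmt1_KO, beside 0.609% of all 6568 genes. At that share 0 calls among so few genes say little. Their medians were low, beside -0.03 over all genes. The 13 genes tested of the receptor list, which includes Lyve1 and Pecam1, had a median log2 fold change of -1.59 with 1 above 0. The 10 granule genes stood at -1.61 with 2 above 0, the 15 signalling genes at -1.04 with 0 above 0 and 9 at unadjusted p below 0.05, and the 10 cytoskeletal genes at -0.51. The 20 transcription factors stood at -0.20, and the 20 cell cycle and 20 housekeeping genes at 0.01 and -0.01. The 11 erythroid genes had a median of 0.91 with 8 above 0, and the 8 endothelial genes 0.40 with 7 above 0. Of 7 tested p53 target genes 6 were above 0, with a median of 1.48 and 0 called.

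Pf4, a gene of the rule, stood at 24.4, 18.5 and 9.44 CPM in Dnmt1_KO against 26.8 to 294 in WT, and Plek at 24.4, 0 and 18.9 against 26.8 to 237. Neither overlapped, but the lowest WT values, both in replicate 4, rest on 5 UMIs each. The share of all genes without overlap was not counted. The Pf4 log2 fold change, -2.31, is description only, since Pf4 chose the cells. The test of Plek did not pass (log2 -2.98, edgeR adjusted p = 0.0770). Itgb3 stood at 6.98, 4.62 and 18.9 CPM against 17.6 to 81.4 (-2.76, adjusted p = 0.120). Gata2, a progenitor factor, stood at 83.7, 83.1 and 94.4 CPM against 5.88 to 26.8 in WT with no overlap (2.24 ± 0.50, adjusted p = 0.0205) and did not pass.

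The rule's genes were also detected outside the chosen cells of Dnmt1_KO embryos. Pf4 had a UMI in 59.7%, 49.6% and 44.0% of their endothelial-gated cells, against 10.7% to 25.7% in the WT embryos, and in 45.8% of those of Dnmt3b_KO replicate 12. Itga2b had a UMI in 81.8%, 81.3% and 61.5% of erythroid-gated cells against 36.0% to 67.8% in WT, and Gp9 in 0%, 1.33% and 4.59% against 3.24% to 10.96%, both with overlap. Depth differed between these libraries, and the shares were not tested. Of the 8 chosen Dnmt1_KO cells 7 passed the erythroid gate, and 5 passed the endothelial gate. The part of these cells in the Dnmt1_KO values was not tested.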

How the data were processed

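Single-cell RNA-seq libraries, 18 in all and each labelled as 1 E8.5 embryo, were used, with 2 of them summed for shared barcodes. The authors deposited UMI counts per gene and barcode, made with Cell Ranger against mm10. The matrix headers name versions 3.1.0 and 5.0.0, and 4 libraries had been counted against a combined human and mouse reference, of which the mouse genes were kept. Barcodes with 3000 or more mouse UMIs were kept and the rule applied. The members and gene lists were chosen with earlier results of these data known. Erythroid-gated and endothelial-gated cells passed exactly that gate and were not among the chosen cells. Macrophage-gated cells (25) needed Csf1r and 2 of Fcer1g, Tyrobp, Laptm5, Coro1a, Fcgr3 and Spi1.

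Counts of the chosen cells were summed per library and tested with edgeR 4.0.16 in R 4.3.3 (quasi-likelihood, TMM scaling, 1 fit over all groups, Benjamini-Hochberg adjustment), called at adjusted p below 0.01 with a log2 change of 1 or more either way. The SE is the fold change divided by the square root of F, and 95% intervals use the t distribution matching each fitted p. The interaction fit paired the chosen and other cells of each library. DESeq2 1.42.0 was an alternative. Shares were compared as log2 shares with 0.5 cells added by an exact permutation test over embryos, adjusted over 3 comparisons. Descriptive log2 differences had 10 CPM added. Doublets were marked with Scrublet in scanpy 1.11.5. The count tests were also run on simulated data, the outcome of which is not reported here. As no label names litters or repeat cultures beyond the embryo, p-values measure the spread between these embryos.

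Named genes were the 3 targeted genes, the 6 rule genes, listed genes called in any comparison, up to 8 higher and 8 lower called genes per comparison by adjusted p (without Y-linked genes, Xist and Tsix), up to 3 each way per interaction, and the 15 leading WT genes. Other genes named from the lists are examples chosen with their values seen, and some listed genes are not reported here. Of the remaining lists, 7 of 10 progenitor genes, 16 of 20 cell cycle, 11 of 20 housekeeping, 6 of 12 p53 target, 3 of 10 interferon, 7 of 10 endothelial, 3 of 12 erythroid, 2 of 40 germline and 4 of 48 imprinted genes had a higher WT median than other cells.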

Additional observations from a re-analysis of the deposited data

Results flagged for a closer look

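The values here stood apart within a group, between groups or outside the comparisons. Groups of 4 to 7 embryos were examined with Dixon's test at its 95% level in 16 sets of values, and chance flags about 1 in 20 groups. The ratio of median UMIs of the chosen cells to that of other cells was far from the rest in WT replicate 2, at 7.16, and in Dnmt3a_KO replicate 2, at 8.34. The Tex19.1 level of WT replicate 7, 13.7 CPM, was far above the other WT embryos. The Gp5 level of WT replicate 1, 63.2 CPM, was flagged too, but Gp5 is a gene of the rule, so its flag is description only. Tsix differed between the chosen and the other cells in Dnmt3a_KO against WT, with an interaction of 3.21 on the log2 scale. Outside the rule, 9 cells had 3 or more markers together with Csf1r.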

How the results depend on the processing

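For the shares, 20, 21 and 20 alternatives for Dnmt1_KO, Dnmt3a_KO and Dnmt3b_KO left every difference from WT on the same side of the 0.05 threshold after adjustment. For the replicate block this was fixed by the design, since its exact permutation test over 3 or 2 pairs cannot go below p = 0.25 or 0.5. Leaving out a Dnmt1_KO embryo, or Dnmt3b_KO replicate 11 or 12, left 2 against 7 embryos and 36 splits, too few for that comparison to pass after adjustment over 3 comparisons on its own, so these alternatives say little about stability. The log2 differences ran from -1.55 to 0.59, from -1.35 to 1.16 and from -1.05 to 1.02. The lowest Dnmt1_KO value came with 4 markers required, where no chosen Dnmt1_KO cell was left. The lowest Dnmt3b_KO value came with cells thinned to 3000 UMIs, where few chosen cells were left in any group. Leaving out 1 embryo at a time gave -1.29 to -0.16, -0.55 to 0.49 and -0.80 to 0.22.

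The number of called genes was less stable. For Dnmt3a_KO, 0 genes became 2 with 2 markers required, 1 with 4 markers, 46 with no low-count filter, 2 with a Y-linked covariate, 2 with DESeq2 and 0 to 1 with a library left out. For Dnmt3b_KO, 2 became 60 with 2 markers required, 105 with no filter, 8 with at least 3 cells per library, 5 with the Y-linked covariate, 0 with counts thinned to the smallest library, and 0 to 4 with a library left out, 0 being without replicate 12. DESeq2, Scrublet removal and the combined-reference covariate each gave 3. For Dnmt1_KO, 40 became 518 with 2 markers required, a fit that also took in Dnmt1_KO replicate 3, and 4 to 45 with a library left out, where a lone Dnmt1_KO library is assumed to vary like the others. The interaction for Dnmt3a_KO, 1 gene, became 0 with library-size scaling, 39 with no filter, 0 against endothelial-gated or erythroid-gated cells and 0 to 2 with a library left out. That for Dnmt3b_KO, 0 genes, became 20 with no filter and 0 with any library left out. Requiring 2 markers brought 17 libraries into the fit, in place of 11 for Dnmt3a_KO and Dnmt3b_KO, so cells and libraries changed together. The cause was not tested. The limits on cells per library and thinning to 20000 UMIs were chosen after seeing the data.

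With the replicate block, same-numbered embryos gave -0.90 for Dnmt1_KO (3 pairs, exact permutation p = 0.25) and -1.35 for Dnmt3a_KO (2 pairs, p = 0.5). The numbers did not pair the embryos, the correlations of deviations being 0.15, -0.13 and -0.40 for Dnmt1_KO and 0.54 and 0.19 for Dnmt3a_KO. Fits not run for want of cells or shared numbers were the gene fits on thinned cells, without cells of other gates, with 20 cells per library and with a replicate block, the planned Dnmt1_KO fits and the Dnmt3b_KO fit with 4 markers. Depth is a limit, with 1 to 43 cells per library.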
